A study of Rattus norvegicus with 138 samples.

Results

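Complement components and receptors were followed through the tibialis anterior (TA) muscle of the rat after volumetric muscle loss (VML), the surgical removal of more muscle than the tissue can replace. The members are 9 genes taken by symbol from the table of expression values: the chains of the recognition protein C1q (C1qa, C1qb and C1qc), its proteases C1r and C1s, the central component C3, the anaphylatoxin receptors C3ar1 and C5ar1, and the inhibitor Serping1. All 9 were present among 16181 symbols, and all 9 were among the 11328 symbols that were tested. Male Lewis rats of about 4 months of age received a 6 mm biopsy punch in the TA muscle of 1 leg, and the injured muscle, the contralateral muscle or both were profiled by RNA-Seq at 3, 7, 14 or 28 days post injury (DPI). Injured muscles were left without repair or were repaired with autologous minced muscle graft (MMG), small pieces of the excised tissue returned to the defect, and part of the rats in each arm were labelled as running, with no further detail on the running in the sources used here. Contralateral muscles came from the uninjured leg of operated rats, and 4 control muscles came from the left and right legs of 2 rats that the labels call sham and the study describes as unoperated.

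Complement is a cascade of plasma and tissue proteins that tags dead cells, debris and microbes and calls in phagocytes. C1q binds the target, C1r and C1s are the proteases that it switches on, and these lead to the cleavage of C3, the step on which all branches converge. The small fragments C3a and C5a are read by the receptors C3ar1 and C5ar1 on myeloid cells, and Serping1 encodes C1 inhibitor, which inactivates C1r and C1s. In damaged tissue C1q is known as a product of macrophages, whereas C1r, C1s and Serping1 are made largely by fibroblasts and other stromal cells, and the liver is the main source of circulating C3.

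Expression is given in TPM, a share of a library's transcripts that is scaled for transcript length, so levels of different genes can be set side by side. Differences are log2 fold changes of TPM + 1 with their standard error (SE) from one limma model over 114 muscles in 31 groups, with Benjamini-Hochberg adjustment over all 11328 symbols, and a call required both a log2 fold change beyond 1 in size and an adjusted p below 0.05. The model was read in 35 comparisons. The kept libraries each held between 7866 and 10948 symbols above 1 TPM, and 13 libraries with 901 to 5712 such symbols were left out. Muscles of 1 rat are not independent, the control group rests on 2 rats, and the control rats carry another number series than the operated rats, so that series and injury cannot be told apart in comparisons with control. The tissue labels held: 11 skeletal muscle fiber markers together reached 230581 to 287158 TPM in control muscles and 47149 to 64263 TPM in injured muscles at 3 DPI. TPM values are shares of a library, and the median log2 fold change of all tested symbols in injured against control muscles was 0.96, 0.91, 0.53 and 0.52 at 3, 7, 14 and 28 DPI, so the members are set beside that shift.

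Removal of muscle was followed by higher levels of every member. In injured muscles without repair or running, all 9 members were called higher than control at 3 and at 7 DPI, 8 of 9 at 14 DPI and 7 of 9 at 28 DPI. The share of all tested symbols called higher was large as well, 48.3%, 45.6%, 25% and 21.1% on these days in turn. The median log2 fold change of the members was 4.38, 3.83, 3.18 and 2.69 on these days. The 4 comparisons share the same 4 control muscles. In every one of them, the injured values of each of the 9 members all lay above the control values, which was also true of 69.9%, 66%, 58.9% and 60.2% of all tested symbols on these days in turn.

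**Figure D1:**
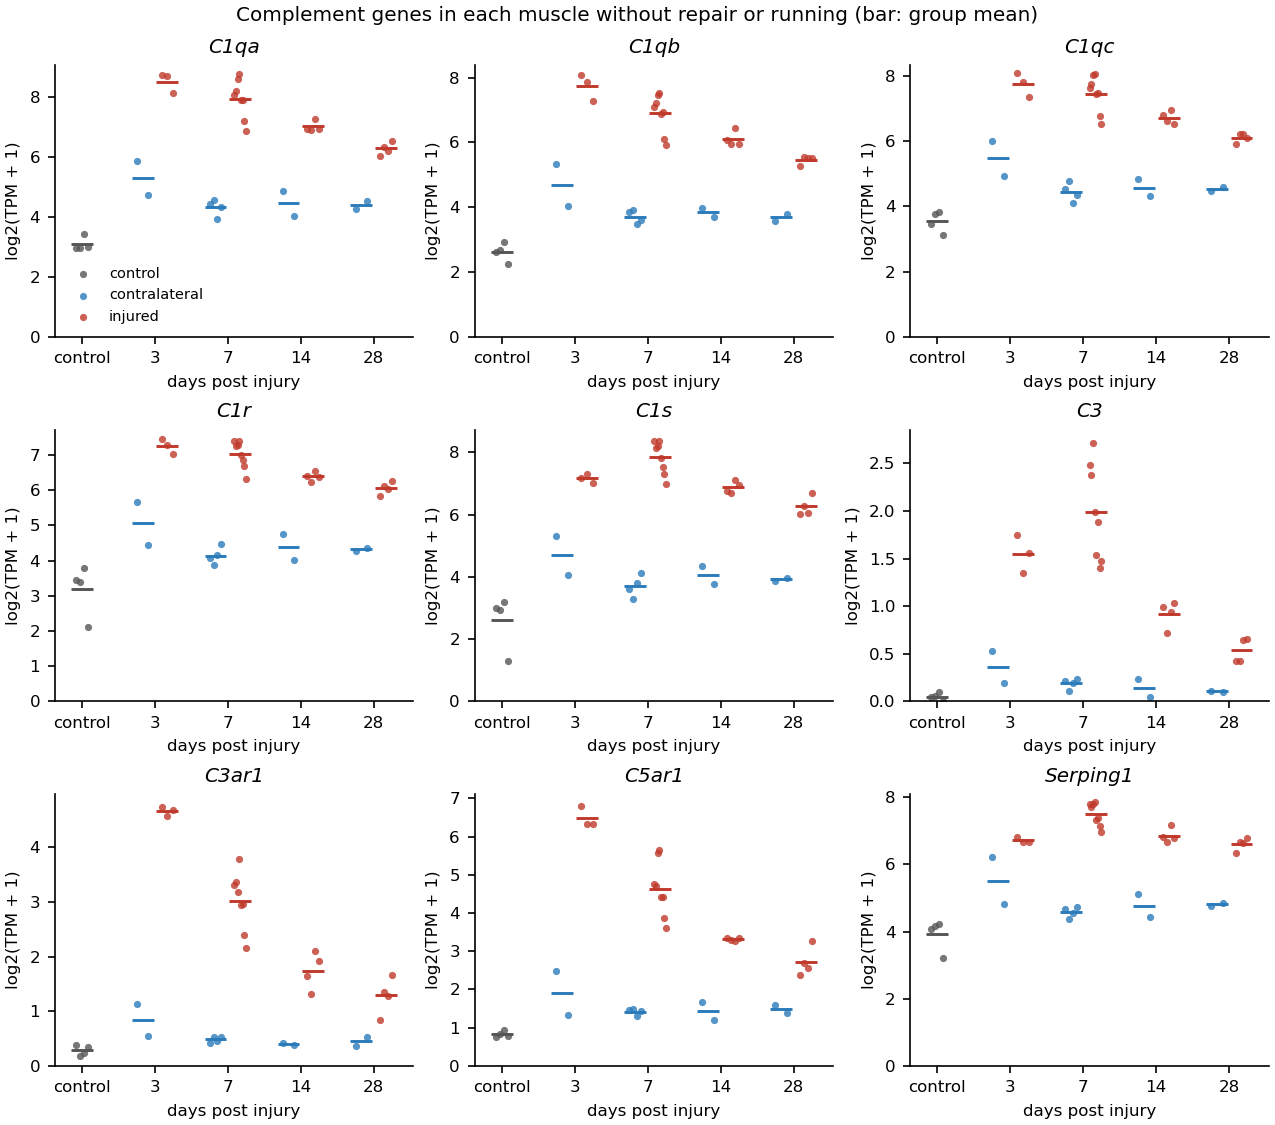
Expression of the 9 complement genes as log2(TPM + 1) on the vertical axis, with 1 point per muscle and a bar at the group mean, for control (grey), contralateral (blue) and injured (red) muscles without repair or running by days post injury on the horizontal axis. All injured points lie above all control points in each panel; C3ar1 and C5ar1 fall most steeply after 3 DPI, and C1s, C3 and Serping1 have their highest means at 7 DPI.

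Of the members, C1qa had the highest level in injured muscles at 3 DPI. C1qa was at 6.82, 6.87, 9.87 and 7.00 TPM in the 4 control muscles. It reached 426, 415 and 281 TPM in the 3 injured muscles at 3 DPI, and at 7 DPI the 8 injured muscles ran from 115 TPM to 440 TPM with a median of 254 TPM. It was still at 123, 121, 155 and 123 TPM at 14 DPI and at 65.4, 80.7, 73.5 and 92.6 TPM at 28 DPI. The lowest injured muscle at 28 DPI thus stood far above the highest control muscle, and the mean remained 10.2 times that of control.

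On the log2 scale C1qa rose by 5.43 ± 0.30 (SE, adjusted p = 2.9e-29) at 3 DPI and was 3.20 ± 0.28 above control (adjusted p = 5.9e-17) at 28 DPI. C1qb rose by 5.122 ± 0.31 at 3 DPI and was 2.85 ± 0.29 above control at 28 DPI. C1qc rose by 4.201 ± 0.29 and was 2.56 ± 0.27 above control on these days. Adjusted p in limma was 1.0e-23 or smaller for all chains at 3 DPI and 1.2e-13 or smaller at 28 DPI.

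The chains did not rise in proportion. C1q protein contains the 3 chains in equal numbers, and in control muscles the C1qc transcript was the most abundant of the 3, with 9.99, 12.6, 13.2 and 7.60 TPM. The ratio of C1qa to C1qc in control muscles was 0.546 to 0.921. In injured muscles it was 1.59 to 1.86 at 3 DPI, 1.28 to 1.67 at 7 DPI, 1.11 to 1.37 at 14 DPI and 1.01 to 1.38 at 28 DPI. None of these injured ranges overlapped the control range, and in contralateral muscles without repair or running the ratio stayed between 0.826 and 1.05 over all days. The ratio of C1qa to C1qb was 1.28 to 1.85 in control muscles and 1.57 to 1.84 in injured muscles at 3 DPI, within the control range. It was 1.94 to 2.39 at 7 DPI, above that range, and overlapped it at 14 DPI (1.81 to 2.01) and 28 DPI (1.63 to 2.06). These ratios are given as values without a test. In MMG-treated injured muscles the C1qa to C1qc ratio was 1.32 to 1.83 at 3 DPI and 0.971 to 1.14 at 28 DPI.

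**Figure D2:**
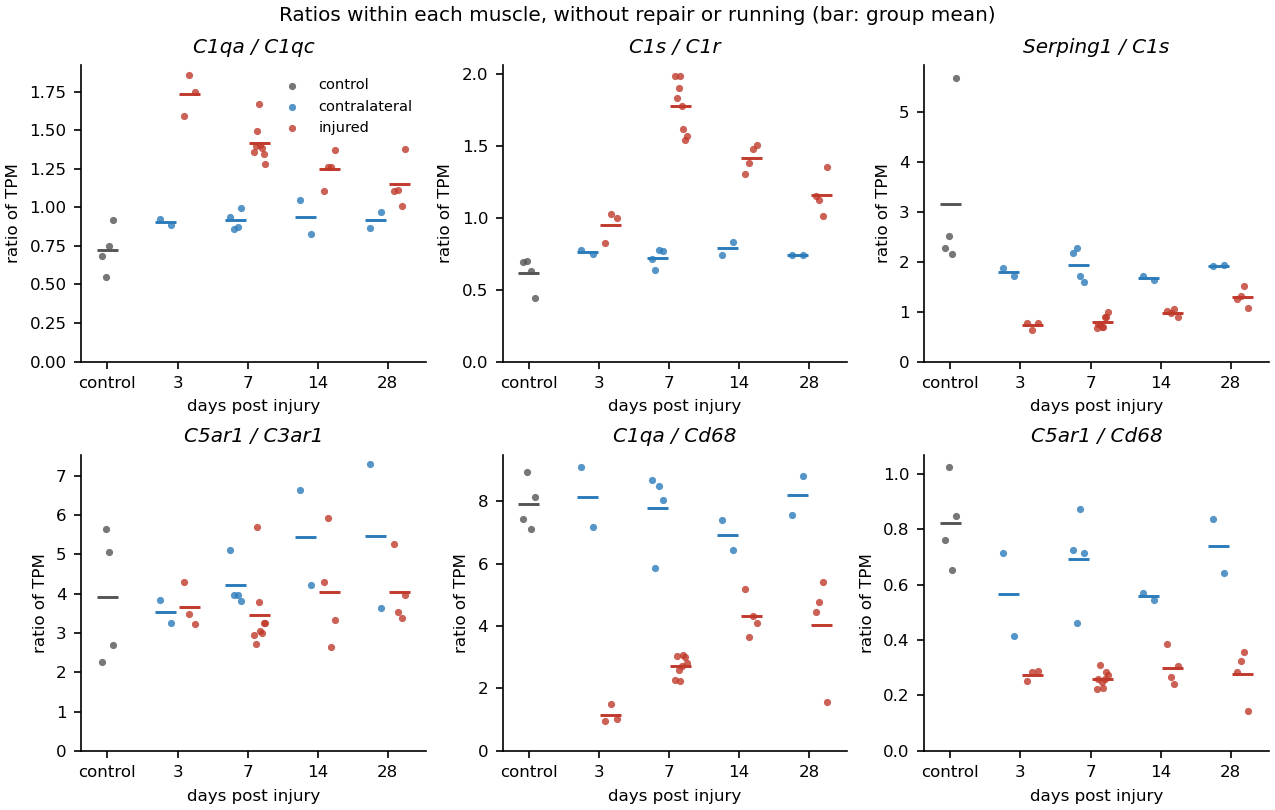
Ratios of TPM between pairs of genes within each muscle (vertical axes, linear), with 1 point per muscle and a bar at the group mean, for control (grey), contralateral (blue) and injured (red) muscles without repair or running by days post injury. C1qa to C1qc is highest at 3 DPI and C1s to C1r at 7 DPI, Serping1 to C1s is below control on all days, and C1qa to Cd68 is lowest at 3 DPI while C5ar1 to Cd68 is low throughout.

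The promoters of C1qa and C1qb are shown because these neighbouring genes, on the same strand of chromosome 5, moved together, and that of C3 because it is the component that stayed lowest. The RefSeq promoter table (build GRCr8) held 5 of the 9 members, and the 4 of them selected for a search (C1qa, C1qb, C3 and C3ar1) were scanned over 250 bases upstream of the start on both strands. The capitals mark matches. The core bound by PU.1, a factor of myeloid cells, was searched as GAGGAA on either strand. STAT sites were searched as TTCNNNGAA, the core of interferon response elements as GAAANNGAA and C/EBP sites as TTGCNNAA. The box near many transcription starts was searched as TATAAA. Of the upstream windows of 33469 promoters, 23.3% held the PU.1 core, 7.67% a STAT match, 8.12% an interferon response element core, 9.22% a C/EBP match and 12.9% the box. The sequences are written 5′ to 3′ on the strand of the gene.
C1qa (chr5:154419934-154420183, minus strand): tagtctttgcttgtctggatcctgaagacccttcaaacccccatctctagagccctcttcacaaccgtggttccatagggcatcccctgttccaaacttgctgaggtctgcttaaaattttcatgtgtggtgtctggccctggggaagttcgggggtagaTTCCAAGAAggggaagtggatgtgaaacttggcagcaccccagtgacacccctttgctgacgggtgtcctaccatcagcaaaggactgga
C1qb (chr5:154407828-154408077, minus strand): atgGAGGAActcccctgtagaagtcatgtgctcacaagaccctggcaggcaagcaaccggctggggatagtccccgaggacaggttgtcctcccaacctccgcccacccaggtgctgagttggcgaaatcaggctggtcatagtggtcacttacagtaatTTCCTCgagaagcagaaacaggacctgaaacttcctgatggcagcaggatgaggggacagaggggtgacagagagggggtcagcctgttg
C3 (chr9:2201340-2201589, minus strand): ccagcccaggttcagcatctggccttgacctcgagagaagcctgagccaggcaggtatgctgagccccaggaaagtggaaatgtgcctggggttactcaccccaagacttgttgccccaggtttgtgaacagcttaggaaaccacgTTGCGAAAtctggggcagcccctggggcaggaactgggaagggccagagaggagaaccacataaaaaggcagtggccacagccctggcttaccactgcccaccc

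C1qa held 1 STAT match that ends 82 bases before the start. C1qb held 2 PU.1 core matches, the nearer of them, on the opposite strand, ending 85 bases before the start. C3 held 1 C/EBP match that ends 97 bases before the start, and the window of C3ar1 held none of the 5 motifs. A match is a stretch of letters and was not tested as a binding site.

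The proteases of C1 rose with C1q but kept different time courses. C1r was at 10.01, 9.57, 12.97 and 3.31 TPM in the control muscles, at 174, 154 and 129.2 TPM at 3 DPI, and between 79.6 and 167 TPM with a median of 140.8 TPM at 7 DPI. It stood at 55.9, 68.5, 64.9 and 75.4 TPM at 28 DPI. C1s, its substrate in the C1 complex, was at 6.96, 6.70, 8.20 and 1.47 TPM in control muscles and at 143.9, 158 and 128.8 TPM at 3 DPI. At 7 DPI it ran from 124.9 TPM to 331 TPM with a median of 254 TPM, a median close to that of C1qa. At 28 DPI it was at 64.3, 76.99, 65.6 and 102.1 TPM.

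In log2 units C1r was 4.06 ± 0.27 above control at 3 DPI, 3.83 ± 0.21 at 7 DPI and 2.87 ± 0.25 at 28 DPI. C1s was 4.56 ± 0.32 above control at 3 DPI, 5.23 ± 0.26 at 7 DPI and 3.65 ± 0.29 at 28 DPI, with adjusted p of 1.2e-23, 3.6e-33 and 8.3e-19 in limma. At 7, 14 and 28 DPI no other member had a larger log2 fold change than C1s on this scale. The control mean of C1s is lowered by replicate 4, at 1.47 TPM against 6.70 to 8.20 TPM in the rest, and the ranking without it is not given. The ratio of C1s to C1r was 0.444 to 0.700 in control muscles, 0.825 to 1.03 in injured muscles at 3 DPI, 1.54 to 1.98 at 7 DPI and 1.01 to 1.35 at 28 DPI. The control range lay below every injured range, and the 3 and 7 DPI ranges did not overlap.

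Serping1, the inhibitor of both proteases, had the highest level of the 9 members in control muscles. On the log2 scale of TPM + 1 it had the smallest fold change in injured muscles at 3 DPI after C3. The control values of C3, 0.07 TPM at most, lie below the added 1 TPM, which lowers its fold change on this scale. Serping1 was at 15.8, 16.8, 17.6 and 8.35 TPM in control muscles and at 111, 101.5 and 100.7 TPM at 3 DPI. The 8 injured muscles at 7 DPI ran from 123 TPM to 231 TPM with a median of 188 TPM, and those at 28 DPI were at 80.2, 100.4, 99.3 and 109 TPM. Its log2 fold change against control was 2.80 ± 0.29, 3.58 ± 0.24, 2.94 ± 0.27 and 2.69 ± 0.27 at 3, 7, 14 and 28 DPI, with an adjusted p of 2.5e-14 or smaller on each day. At 28 DPI Serping1 was again the most abundant member.

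The balance between inhibitor and protease transcripts differed between injured and control muscles. Serping1 exceeded C1s by 2.15 to 5.68 times in control muscles, where the highest ratio came from control replicate 4, in which C1s was lowest. The ratio was 0.640 to 0.781 at 3 DPI, 0.670 to 0.984 at 7 DPI, 0.892 to 1.04 at 14 DPI and 1.07 to 1.51 at 28 DPI. In contralateral muscles without repair or running it was 1.58 to 2.27 over all days, above every injured muscle without repair or running on any day. The values are given without a test.

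C3 transcripts were scarce in all muscles. The control muscles were at 0.03, 0.04, 0.07 and 0.00 TPM, and the 3 injured muscles at 3 DPI at 2.36, 1.54 and 1.94 TPM. At 7 DPI the 8 injured muscles ran from 1.65 TPM to 5.58 TPM with a median of 2.84 TPM, and at 28 DPI the values were 0.34, 0.34, 0.56 and 0.57 TPM. The highest value in any muscle of the series was 5.98 TPM, in an MMG-treated muscle at 3 DPI. C3 was 1.5 ± 0.23 above control in log2 units at 3 DPI (adjusted p = 6.2e-09) and 1.94 ± 0.18 at 7 DPI (adjusted p = 7.7e-17).

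At 14 and 28 DPI C3 had a log2 fold change of 0.87 ± 0.21 (adjusted p = 0.00018) and 0.48 ± 0.21 (adjusted p = 0.034) against control, under the fold threshold. With a pseudocount of 0.1 TPM in place of 1 TPM these values were 2.89 and 2.03, and both were called. The 6 liver markers searched, among them Alb and Apob, summed to at most 0.27 TPM in control muscles and to 0.96 to 1.85 TPM in injured muscles at 3 DPI. Alb was at 0 in all control muscles and in all injured muscles at 3 DPI.

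The anaphylatoxin receptors fell most steeply of the members after 3 DPI. C3ar1 was at 0.31, 0.14, 0.18 and 0.27 TPM in control muscles, at 25.8, 22.9 and 24.7 TPM at 3 DPI, and between 3.46 and 12.9 TPM with a median of 7.48 TPM at 7 DPI. It was at 2.13, 1.48, 3.28 and 2.77 TPM at 14 DPI and at 0.80, 1.55, 1.44 and 2.17 TPM at 28 DPI. C5ar1 was at 0.70, 0.79, 0.91 and 0.73 TPM in control muscles, at 111, 79.6 and 79.7 TPM at 3 DPI, and between 11.2 and 48.8 TPM with a median of 22.9 TPM at 7 DPI. It stood at 9.12, 8.78, 8.65 and 9.20 TPM at 14 DPI and at 4.21, 5.49, 4.87 and 8.61 TPM at 28 DPI. For both receptors, the 3 and 7 DPI ranges did not overlap, nor did those of 7 and 14 DPI.

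C5ar1 had the largest log2 fold change of the members at 3 DPI, 5.66 ± 0.29 above control (adjusted p = 7.9e-32), and 1.89 ± 0.27 at 28 DPI (adjusted p = 2.7e-09). C3ar1 was 4.38 ± 0.24 above control at 3 DPI (adjusted p = 1.5e-29) and 1.00 ± 0.22 at 28 DPI (adjusted p = 6.9e-05), where it fell just short of the fold threshold. It was called at 28 DPI without control replicate 1 (1.03), without control replicate 4 (1.02), without injured replicate 1 (1.14) and with a pseudocount of 0.1 TPM (2.25). Control values of both receptors lie below the added 1 TPM, which lowers their log2 fold changes. Within injured muscles the ratio of C5ar1 to C3ar1 was 3.23 to 4.30 at 3 DPI and 3.38 to 5.26 at 28 DPI with a wider range at the intervening days, 2.71 to 5.68 at 7 DPI and 2.64 to 5.93 at 14 DPI.

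**Figure D3:**
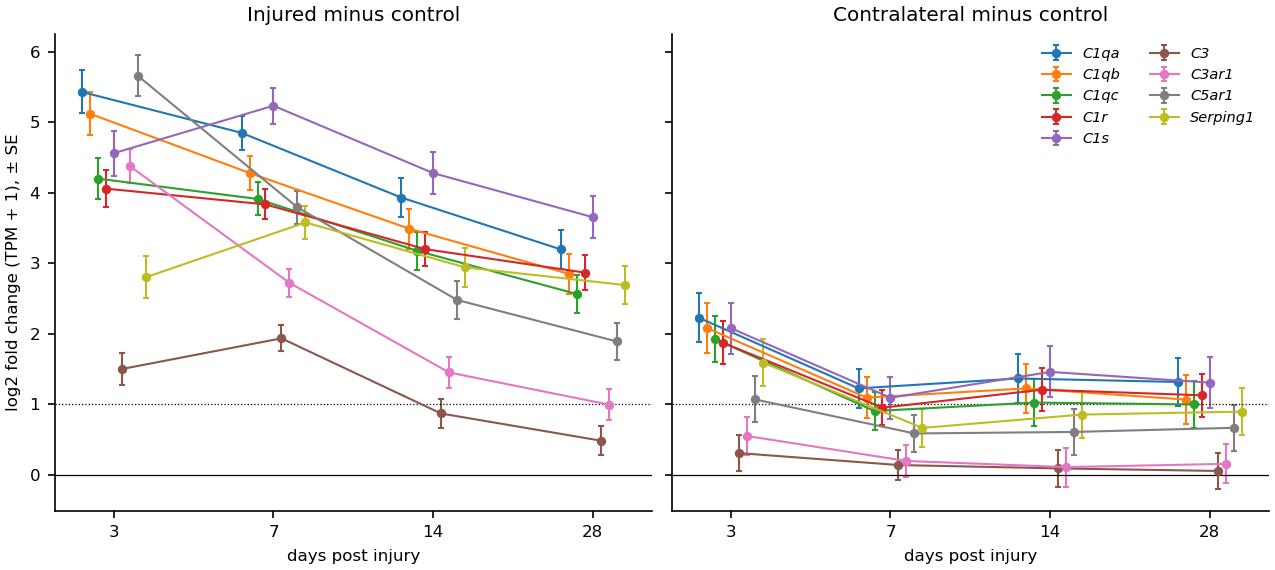
Log2 fold change of TPM + 1 (vertical axis, ± SE from limma) of each member in injured (left) and contralateral (right) muscles against the same 4 control muscles, by days post injury, with the fold threshold of 1 dotted. All muscles are without repair or running. C5ar1 and C3ar1 fall from 5.66 and 4.38 at 3 DPI to 1.89 and 1.00 at 28 DPI, while Serping1 is at 2.80 and 2.69 on these days. Control values of C5ar1 (0.70 to 0.91 TPM) and C3ar1 (0.14 to 0.31 TPM), unlike Serping1 (8.35 to 17.6 TPM), lie below the added 1 TPM. This lowers the receptor fold changes, and with 0.1 TPM added instead C3ar1 is at 2.25 at 28 DPI. Contralateral values are highest at 3 DPI.

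Steps between consecutive days were tested within injured muscles. From 3 to 7 DPI, C3ar1 fell by 1.66 and C5ar1 fell by 1.87 on the log2 scale (SE 0.22 and 0.26, adjusted p = 1.1e-09 and 5.0e-09), 2 of 9 members against 5.35% of all tested symbols called lower. With all mapped libraries kept, C1qb was called lower as well (-1.20, adjusted p = 0.0314). C1s and Serping1 had log2 differences of 0.67 ± 0.28 and 0.78 ± 0.26 over this step, under the fold threshold. From 7 to 14 DPI, C3, C3ar1 and C5ar1 fell by 1.07, 1.27 and 1.31 (SE 0.18, 0.19 and 0.23), against 6.10% of symbols called lower. The other 6 members had values from -0.63 to -0.95. Over all tested symbols the median was -0.40 for this step, -0.06 from 3 to 7 DPI and -0.01 from 14 to 28 DPI. With size factors in place of TPM scaling the 3 falls from 7 to 14 DPI were -0.80, -0.94 and -0.94 and none was called. Without injured replicate 2 at 14 DPI the fall of C3 was -0.997 and not called, and without replicate 3 the values of C1qa and C1s were -1.003 and -1.032 and called. Without injured replicate 3 at 3 DPI, C1qb was also called lower from 3 to 7 DPI (-1.075). From 14 to 28 DPI no member was called lower by limma, although 6 had an unadjusted p under 0.05, with log2 values from -0.74 (C1qa) to -0.25 (Serping1) over the 9, and 0.353% of symbols were called lower.

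The 7 DPI muscles came from rats with numbers under 100 and with numbers of 100 and above, and without repair or running their levels differed. C1qa was at 267 to 440 TPM in the 4 injured muscles of rats numbered under 100 and at 115 to 242 TPM in the 4 of the higher numbers, with no overlap. C3ar1 was at 8.12 to 12.9 TPM in the former and at 3.46 to 6.83 TPM in the latter, and the macrophage marker Cd68 was at 97.97 to 196 TPM and 40.9 to 89.1 TPM. In MMG-treated muscles C1qa was at 296 to 525.8 TPM and 242 to 286 TPM in these ranges, but those of C3ar1 overlapped, at 9.97 to 17.8 TPM and 12.2 to 18.1 TPM, as did those of C3, C5ar1 and Cd68. The labels give no meaning to the numbers. All injured muscles without repair or running at 3 and 28 DPI came from rats numbered under 100 and all those at 14 DPI from rats numbered 100 and above, so that number range and day cannot be told apart in the step from 14 to 28 DPI and in part in the earlier steps. From 3 to 7 DPI, 4 members were called with either set alone: besides the receptors in each, C1qa and C1qb fell by 1.05 and 1.27 with the higher numbers, and C1s and Serping1 rose by 1.10 and 1.07 with the lower numbers. Of all tested symbols, 11.4% were called in either direction with the higher and 5.39% with the lower numbers. From 7 to 14 DPI, 7 members were called lower with the lower numbers and none with the higher numbers, the range that both days share, against 15.8% and 2.76% of all tested symbols in either direction. With the higher numbers C3, C3ar1 and C5ar1 had -0.66, -0.87 and -0.77 (adjusted p = 0.00222, 0.000296 and 0.00186 in limma), past the test for p but under the fold threshold. All 9 members were called higher than control at 7 DPI with either set. The share of all tested symbols called higher is given only for both sets together, 45.6%.

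Injured muscles were next compared with the uninjured contralateral muscles of the same study days, all without repair or running. All 9 members were called higher at 3 and 7 DPI, 8 of 9 at 14 DPI and 7 of 9 at 28 DPI, and the shares of all tested symbols called higher came to 32.3%, 45.3%, 20.9% and 13.1%. All 4 contralateral muscles at 7 DPI came from rats numbered 100 and above. Against injured muscles of that range alone all 9 members were still called, with log2 fold changes from 1.39 (C3) to 3.71 (C1s). The share of all tested symbols called in that fit is not given, and the 45.3% above covers injured muscles of both ranges. Over the members the median log2 fold change was 2.48, 3.01, 2.09 and 1.74 on these days, against 0.54, 0.91, 0.50 and 0.38 for all tested symbols. C5ar1 was 4.59 ± 0.34 and C3ar1 3.83 ± 0.29 higher at 3 DPI, C1s 4.14 ± 0.26 and C1qa 3.62 ± 0.24 higher at 7 DPI, and C1s 2.35 ± 0.36 higher at 28 DPI. The members not called were C3 at 14 DPI (0.78 ± 0.26) and C3 and C3ar1 at 28 DPI (0.43 ± 0.26 and 0.84 ± 0.28). With size factors, C3 at 3 DPI (0.92) and C5ar1 at 28 DPI (0.91) were no longer called, while with a pseudocount of 0.1 TPM the members not called above were called.

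On the scale of TPM + 1, Serping1 was the member closest to its contralateral level at 3 DPI after C3. C3 was at 0.44 and 0.14 TPM in contralateral and 2.36, 1.54 and 1.94 TPM in injured muscles, where the added 1 TPM lowers its fold change. Serping1 was at 73.2 and 27.02 TPM in the 2 contralateral muscles and at 111, 101.5 and 100.7 TPM in the 3 injured muscles, a log2 fold change of 1.21 ± 0.35 (adjusted p = 0.0017 in limma). It was not called without contralateral replicate 2 (0.51), with size factors (0.64) or with all mapped libraries kept (1.21, adjusted p = 0.133 in limma). The same member in running rats was at 64.6 and 90.1 TPM in contralateral muscles at 3 DPI and at 77.96 to 218 TPM in injured muscles, a log2 fold change of 0.54 ± 0.31 (adjusted p = 0.10).

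The change of the injury effect over time was tested as the injured against contralateral difference at 28 DPI minus that at 3 DPI. It was -3.36 ± 0.47 for C5ar1 (adjusted p = 2.3e-08), -2.99 ± 0.40 for C3ar1 (adjusted p = 5.9e-09), -1.32 ± 0.50 for C1qa (adjusted p = 0.030) and -1.26 ± 0.51 for C1qb (adjusted p = 0.043). These are 4 of 9 members, where 14.5% of all tested symbols were called lower. C1r, C1s and Serping1 had differences of -0.45 ± 0.44, -0.14 ± 0.52 and 0.59 ± 0.49, none past the test. The receptor calls held without each of the 11 muscles left out in turn, whereas those of C1qa and C1qb were lost without injured replicate 1 or 2 or contralateral replicate 2 at 3 DPI, or without injured replicate 1 or contralateral replicate 2 at 28 DPI, and that of C1qb also without contralateral replicate 1 at 28 DPI. Without contralateral replicate 2 at 3 DPI the values for C1qa and C1qb were -0.76 and -0.61. With all mapped libraries kept neither was called (adjusted p = 0.459 and 0.448 in limma), and C1qb was not called with a pseudocount of 0.1 TPM, with no filter or with size factors either (adjusted p = 0.0561, 0.0623 and 0.0567).

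Muscles of the opposite, unpunched leg of rats without repair or running were then compared with control muscles. At 3 DPI, C1qa was at 58.3 and 26.01 TPM in the 2 contralateral muscles against 6.82 to 9.87 TPM in control muscles, a log2 fold change of 2.23 ± 0.35 (adjusted p = 9.7e-07). C1qb, C1qc, C1r and C1s had log2 fold changes of 2.08 ± 0.35, 1.93 ± 0.33, 1.87 ± 0.30 and 2.08 ± 0.36, Serping1 of 1.59 ± 0.33 and C5ar1 of 1.07 ± 0.33. In all, 7 of 9 members were called higher, against 6.37% of all tested symbols. C3 and C3ar1 were the members not called, with 0.31 ± 0.26 and 0.55 ± 0.28, but with a pseudocount of 0.1 TPM their values were 1.44 and 1.43 and both were called. Contralateral replicate 1 was higher than replicate 2 for every member, and without replicate 1 the calls of C5ar1 (0.49) and Serping1 (0.89) were lost. With size factors C5ar1 was not called (0.80), and with all mapped libraries kept neither C5ar1 nor Serping1 was (adjusted p = 0.141 and 0.154 in limma). In a fit of the compared groups alone, none of the 9 was, and the adjusted p of the 7 members ran from 0.052 to 0.094.

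The later contralateral muscles were compared with control in the same way, and the contralateral days were not tested against each other. Replicate 2 of the 2 muscles at 3 DPI, with C1qa at 26.01 TPM, lay within the 14.2 to 28.5 TPM of the later contralateral muscles without repair or running, and replicate 1 above them. The other contralateral muscles at 3 DPI had C1qa at 45.4 and 53.3 TPM with MMG, 45.6 and 54.9 TPM with running, and 26.03 and 50.03 TPM with both. At 7 DPI those of running rats reached 58.5 TPM with MMG and 38.3 TPM without. At 7 DPI, C1qa, C1qb and C1s were called higher (1.23 ± 0.28, 1.10 ± 0.29 and 1.09 ± 0.29), 3 of 9 members against 0.636% of all tested symbols. At 14 DPI, C1qa, C1qb, C1r and C1s were called higher (1.37 ± 0.35, 1.23 ± 0.35, 1.21 ± 0.30 and 1.46 ± 0.36), 4 of 9 against 0.653%. At 28 DPI limma called none of the 9, although 7 had an unadjusted p under 0.05 and C1qa was at 18.4 and 22.4 TPM, above all control muscles, with a log2 fold change of 1.32 ± 0.35 (adjusted p = 0.052); 0.185% of all symbols were called. With all mapped libraries kept, C1qa at 7 DPI was at 0.048 and C1qb at 0.51, neither called, and with control muscles averaged per rat C1qa alone was called. At 7 DPI C1s was not called in a fit of the compared groups alone (1.09, adjusted p = 0.249 in limma), and C1r was called with size factors (1.01). None of the 4 calls at 14 DPI held with averaged control muscles (adjusted p from 0.0964 to 0.167 in limma), with all mapped libraries or in a fit of the compared groups alone. With no filter C1qb was not called at 14 DPI (adjusted p = 0.0504 in limma), whereas C1qc was called with a pseudocount of 0.1 TPM (1.09), with size factors (1.02) and with only groups without running (1.03). Control replicate 4 bears on these values, with the lowest C1r, C1s and Serping1 of the control group. Without it, C1qa alone of the 9 was called at 7 DPI and at 14 DPI. Without contralateral replicate 6, C1s was not called at 7 DPI (0.96), while C1r was called without control replicate 1, 2 or 3 or contralateral replicate 4 (1.02 to 1.16) and C1qc without contralateral replicate 5 (1.015). At 14 DPI, C1qb was not called without control replicate 1 (1.22) or contralateral replicate 2 (1.37). Without contralateral replicate 1 no member was called at 14 DPI, and without control replicate 2 or 3 C1qa, C1r and C1s were called at 28 DPI.

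Markers of cell types moved with the members. The 13 macrophage markers summed to 18.04 to 39.7 TPM in control muscles, 4892 to 6437 TPM in injured muscles at 3 DPI, 658 to 3113 TPM at 7 DPI, 435 to 532 TPM at 14 DPI and 246 to 818 TPM at 28 DPI. All 12 of them that were tested were called higher than control at 3 and 7 DPI and 10 at 14 and 28 DPI, and Marco was at 0 in all control muscles and in all injured muscles of 3, 14 and 28 DPI. The 9 fibroblast and fibroadipogenic markers summed to 89.8 to 269 TPM in control muscles, 5309 to 9455 TPM at 3 DPI, 7678 to 22336 TPM at 7 DPI and 2873 to 4796 TPM at 28 DPI, and all 9 were called higher on every day. The 9 neutrophil markers summed to 1.28 to 5.85 TPM in control muscles and 80.7 to 278 TPM at 3 DPI. In contralateral muscles without repair or running at 3 DPI the macrophage sum was 79.1 and 208 TPM and the neutrophil sum 8.82 and 105.4 TPM. Their fibroblast and fibroadipogenic sum was 687 and 1602 TPM. Pdgfra, among the fibroblast and fibroadipogenic markers, was at 3.78 and 6.87 TPM against 0.63 to 1.69 TPM in control muscles. The 7 T cell markers summed to 2.78 to 4.72 TPM in control muscles and 202 to 258 TPM at 3 DPI. In whole muscle, more cells of a type and more RNA per cell cannot be told apart, and the part of these cell types in the members' values was not tested.

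Set against the macrophage marker Cd68, the myeloid members parted. The ratio of C1qa to Cd68 was 7.10 to 8.92 in control muscles, 0.963 to 1.49 at 3 DPI, 2.24 to 3.07 at 7 DPI, 3.66 to 5.20 at 14 DPI and 1.56 to 5.41 at 28 DPI, so C1qa rose less than Cd68, with the widest gap at 3 DPI. The ratio of C5ar1 to Cd68 was 0.655 to 1.03 in control muscles and 0.251 to 0.289, 0.223 to 0.308, 0.240 to 0.387 and 0.145 to 0.358 at 3, 7, 14 and 28 DPI, without a change of this kind over time. At 28 DPI the lowest value of both ratios came from injured replicate 4, in which Cd68 was highest. Against Pdgfra, a receptor of fibroblasts and fibroadipogenic cells, Serping1 stood at 9.96 to 13.3 in control muscles, 1.80 to 2.78 at 3 DPI, 5.48 to 8.97 at 7 DPI and 8.23 to 9.66 at 28 DPI. C1r against Pdgfra was 5.25 to 7.67 in control muscles, 2.73 to 4.02 at 3 DPI and 5.74 to 6.58 at 28 DPI.

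The members were also set against each other and all other tested symbols by their group means of log2(TPM + 1) over the 31 groups of the series. As a description over these groups, which share controls, rats and composition, Pearson r was 0.998 between C1qa and C1qc and 0.994 between C1qa and C1r. It was 0.991 between C3ar1 and C5ar1 and 0.981 between C1s and Serping1, but 0.736 between C3ar1 and Serping1. The symbols outside the members nearest to C1qa were C2, Scpep1 and Cd48 (r of 0.992 for each), and C2, the component cleaved by C1s, was also nearest to C1qc and C1r. Nearest to C1qb were Fcna, RT1-M3-1 and Ifitm3, and nearest to C3 were Lbp, Clec9a and Ptpn22 (0.980 to 0.981). C1s was nearest to Cpq, Mfap5 and Lhfp (0.994 to 0.995), and Serping1 to Serpinf1, Igfbp6 and Cpq (0.986 to 0.991). C3ar1 was nearest to Cd180, Kcnab2 and Il10ra (0.997 to 0.999), and C5ar1 to Fcgr1a and Glipr1 (0.997 to 0.998).

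Of 43 other complement genes listed, 38 were in the table and 28 were expressed enough to be tested. In injured against control muscles, 18 were called higher and 2 lower at 3 DPI, 20 and 2 at 7 DPI, 14 and 1 at 14 DPI, and 14 and 1 at 28 DPI. Of all tested symbols, 48.3%, 45.6%, 25% and 21.1% were called higher and 4.24%, 2.42%, 0.547% and 0.212% lower on these days. The medians of their log2 fold changes were 2.33, 2.24, 1.04 and 1.00. C2 was at 0.79 to 2.62 TPM in control muscles and at 90.7 to 148 TPM at 3 DPI, a log2 fold change of 5.402 ± 0.38 (adjusted p = 4.0e-23), and was 3.70 ± 0.36 above control at 28 DPI. Cfd, the protease that starts the alternative pathway and is known from fat tissue, was 5.18 ± 0.44 above control at 3 DPI and 3.70 ± 0.41 at 28 DPI. Itgam, a chain of the receptor for cleaved C3, was 5.30 ± 0.33 above control at 3 DPI, and the scavenger Colec12 was 4.05 ± 0.18 above control at 7 DPI. C4a was 3.39 ± 0.36 above control at 14 DPI, but C4a and C4b are near-identical copies whose reads may be split between them. In contralateral against control muscles, 10 of the 28 were called higher at 3 DPI, against 6.37% of all tested symbols, Cfd (1.43 ± 0.41) at 7 DPI, Colec12 (1.22 ± 0.26) and Fcna (1.47 ± 0.30) at 14 DPI, and limma called none at 28 DPI.

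The 2 complement genes called lower were Susd4 and Masp1. Susd4, a membrane regulator of complement, was at 26.1 to 33.4 TPM in control muscles and at 3.14 to 4.10 TPM at 3 DPI, a log2 fold change of -2.78 ± 0.29 (adjusted p = 4.7e-15), and of -1.33 ± 0.26 at 28 DPI. Masp1, a protease of the lectin pathway, was at 21.1 to 34.1 TPM and 5.91 to 12.5 TPM, a log2 fold change of -1.36 ± 0.22 (adjusted p = 2.5e-08), and of -0.25 ± 0.20 at 28 DPI (adjusted p = 0.26). Sums of the muscle fiber markers were lower than control on the same days, and their part in these values was not tested. Next lowest were Cd55 at 3, 7 and 14 DPI (-0.55, -0.09 and -0.20) and C1qbp at 28 DPI (-0.04), none of them called.

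Repair with MMG was compared with no repair in injured muscles without running. Limma called none of the 9 members on any day, and over the 36 values the log2 fold change ran from -0.21 to 0.89, with 5 values at an unadjusted p under 0.05. The shares of all tested symbols called in either direction were 0.00883%, 0.0883%, 0.0265% and 0% on the 4 days in turn. On the last day, 28 DPI, the members lay between 0.15 and 0.30, and the 95% intervals of all 9 ran from -0.44 to 0.83 at the widest. C1qa, for example, was at 70.7 to 126.1 TPM with MMG and at 65.4 to 92.6 TPM without.

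At 7 DPI the receptors had the largest log2 fold changes with repair. C3ar1 at 7 DPI ran from 9.97 TPM to 18.1 TPM with a median of 13.2 TPM in the 8 MMG-treated muscles and from 3.46 TPM to 12.9 TPM with a median of 7.48 TPM in the 8 unrepaired muscles, so the groups overlapped. Its log2 fold change was 0.89 ± 0.16 (adjusted p = 0.000197, 95% interval 0.57 to 1.20), past the test for p but under the fold threshold. C5ar1 at 7 DPI had 0.61 ± 0.19 (adjusted p = 0.032). In rats numbered 100 and above the values were 1.36 for C3ar1 and 1.05 for C5ar1 (adjusted p = 2.33e-06 and 0.00037, both called), whereas in rats numbered under 100 they were 0.41 and 0.17 (adjusted p = 1.00 for each), and the difference between the sets was not tested. Cd68 was at 126.9 to 188 TPM with MMG and at 40.9 to 89.1 TPM without in the higher numbers, with no overlap, and at 134.4 to 289 TPM and 97.97 to 196 TPM in the lower numbers, and its part in the receptor values was not tested. At 3 DPI C3ar1 was at 29.3 to 50.9 TPM in 7 MMG-treated muscles and at 22.9 to 25.8 TPM in 3 unrepaired muscles, a log2 fold change of 0.65 ± 0.22 (adjusted p = 0.17).

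**Figure D4:**
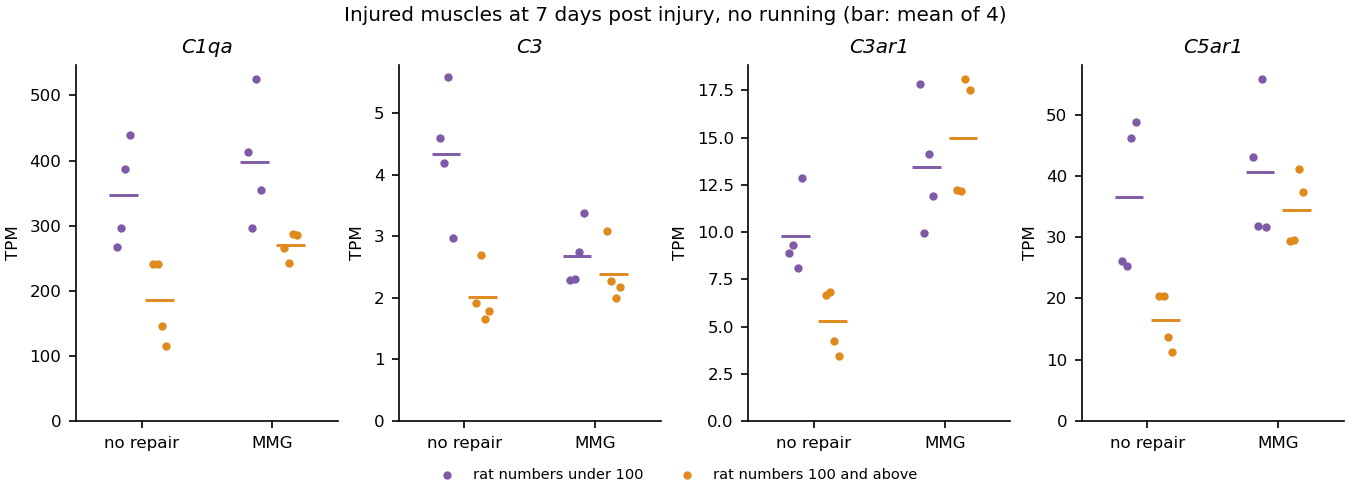
TPM (vertical axis, linear) of C1qa, C3, C3ar1 and C5ar1 in injured muscles at 7 DPI without running, with and without MMG repair, split by rats numbered under 100 (purple) and 100 and above (orange), with 1 point per muscle and a bar at the mean of 4. In unrepaired muscles the higher numbers lie lower in all 4 panels, and for C3ar1 they lie below all MMG-treated muscles.

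MMG-treated muscles were compared with the contralateral muscles of MMG-treated rats as separate groups. The members called higher were 9, 9, 8 and 8 of 9 at 3, 7, 14 and 28 DPI, where 37.2%, 42.9%, 25.6% and 18.8% of all tested symbols were. C5ar1 was 4.49 ± 0.30 and C3ar1 4.48 ± 0.25 higher at 3 DPI, C1qa 3.87 ± 0.22 and C1s 3.76 ± 0.22 higher at 7 DPI, and C1s 2.50 ± 0.36 higher at 28 DPI. C3 had 0.69 ± 0.26 at 14 DPI and 0.71 ± 0.26 at 28 DPI, under the fold threshold, but with a pseudocount of 0.1 TPM it had 1.94 and 2.31 and was called on both days. Serping1 was called at 3 DPI with 1.05 ± 0.31, but not with size factors (0.35), without MMG contralateral replicate 1 (0.86) or with all mapped libraries kept (1.05, adjusted p = 0.113 in limma). C3ar1 at 28 DPI (1.06 ± 0.28) was not called with size factors (0.86), nor without MMG contralateral replicate 1 (0.95), injured replicate 2 (0.97) or injured replicate 4 (0.97).

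Running was compared with no running in injured muscles, once without repair and once with MMG. Limma called none of the 9 members in any of the 8 comparisons, and 8 of the 72 values had an unadjusted p under 0.05. Without repair, the shares of all symbols called were 0.0441%, 0%, 0.0177% and 0.0177% at 3, 7, 14 and 28 DPI, and with MMG they were 0% on each day. The log2 fold changes ran from -0.51 (C3 at 3 DPI with MMG) to 0.71 ± 0.25 (C1qb at 7 DPI without repair, adjusted p = 0.13). C1qb at 7 DPI was at 133.4 to 328 TPM in 4 running and at 59.3 to 184 TPM in 8 non-running rats, which overlap. All 4 running rats were numbered under 100, and against the non-running rats of that range alone C1qb had 0.28 ± 0.27, the highest of the 9 members, and C3 the lowest at -0.17 (adjusted p = 1.0 for each in limma). At 28 DPI the running groups hold 2 muscles each, and the 95% intervals then reach from -0.82 to 1.19.

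**Figure D5:**
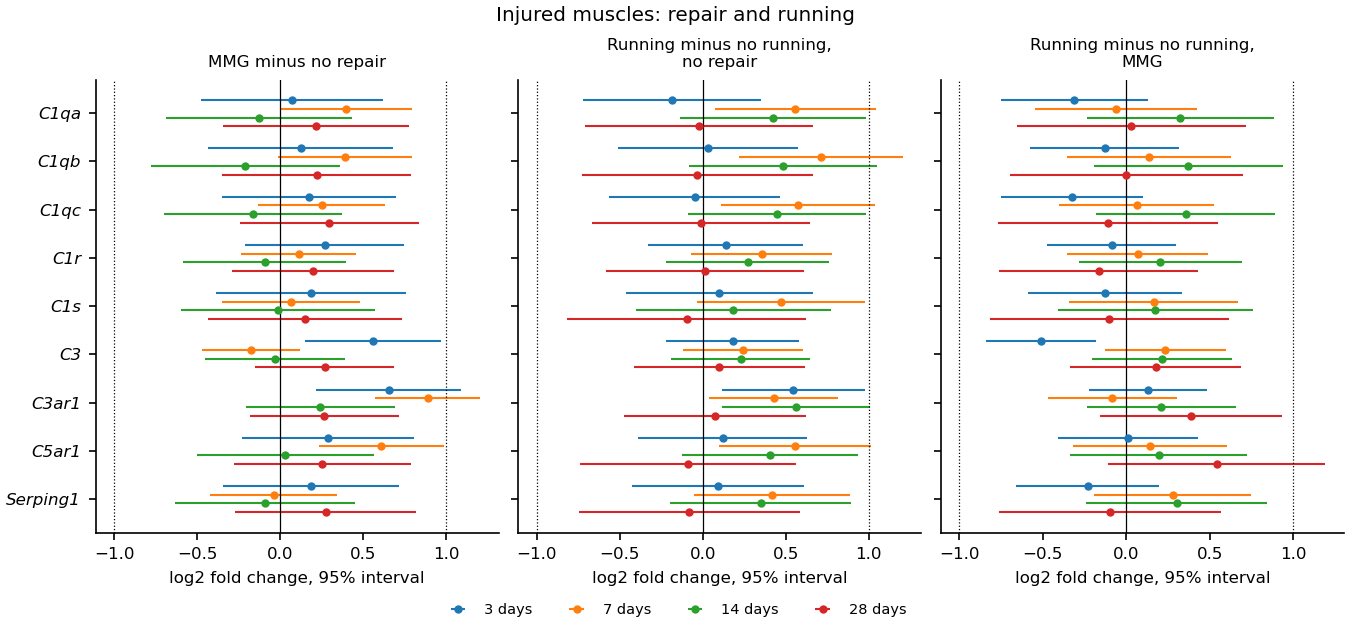
Log2 fold change of each member (horizontal axis, with its 95% interval from limma) in injured muscles for MMG against no repair (left), running against no running without repair (middle) and with MMG (right), coloured by days post injury, with the fold threshold dotted at -1 and 1. Every point lies between the dotted lines; the largest is C3ar1 at 7 DPI with MMG at 0.89.

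Within running rats without repair, the members were also higher in injured muscles. Of the 9, 8 were called higher than contralateral at 3 DPI, 9 at 7 DPI and 8 at 14 DPI, against 33.7%, 39.9% and 25.7% of all tested symbols. C5ar1 and C3ar1 led at 3 DPI with 4.30 ± 0.30 and 4.28 ± 0.25, and C1s and C1qa at 7 DPI with 3.72 ± 0.36 and 3.55 ± 0.35. Apart from Serping1 at 3 DPI, the member not called was C3 at 14 DPI with 0.92 ± 0.26 (adjusted p = 0.0012), which had 2.25 with a pseudocount of 0.1 TPM and was then called. With size factors C3 was not called at 3 DPI either (0.90). At 28 DPI, 8 libraries of running rats whose labels and titles conflict were used in no comparison, which left no running contralateral muscle at that time.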

How the data were processed

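Whole TA muscles were profiled by RNA-Seq. The authors pseudo-aligned reads to rat build 6.0 with Kallisto and deposited 1 table of TPM for 138 libraries and 16182 entries; versions are not given in the sources used here. Counts and read depth per library were not used here, so depth behind a value is unknown. 1 incomplete entry, 8 libraries whose labels and titles conflict, 1 library whose labelled day differs from that of its rat's other libraries, and 13 libraries with fewer than 7000 symbols above 1 TPM were left out, and libraries of 1 muscle were averaged, which left 116 libraries of 114 muscles from 78 rats. From the deposited TPM, log2(TPM + 1) was fitted with limma 3.58.1 (R 4.3.3, moderated variance with an intensity trend, 83 residual degrees of freedom) for symbols whose mean was above 1 TPM in at least 1 group. The fit was tested on simulated data. Tables and figures used Python 3.11.15, pandas 2.3.3 and matplotlib 3.10.9. The labels tie muscles to rats: over 36 pairs from the same rat, deviations from group means correlated at a mean r of 0.0722 (others -0.0087), and rat as a block changed 0 member calls.

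All 9 members, 3 top and 3 bottom other complement genes per day, and 3 nearest symbols per member are named, except that some are not reported here. Members and lists were chosen with earlier results of these data known. Alternatives were another pseudocount, no filter, median-of-ratios size factors, the rat block, all mapped libraries, each library as a sample, only the compared groups, only groups without running, averaged control muscles, each muscle of small groups left out, and, chosen after seeing the data, the ranges of rat numbers at 7 DPI.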

Additional observations from a re-analysis of the deposited data

Results flagged for a closer look

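By Dixon's criterion, 11 single values lay far from the rest of their group. For each of the 9 members 16 groups of 4 to 8 muscles were tested, and chance flags about 5% of groups, or 7.2 values in all. In control muscles, C1qa was far above the others in replicate 3 (9.87 TPM), and C1s (1.47 TPM) and Serping1 (8.35 TPM) were far below in replicate 4. Among injured muscles without repair or running, C1qa was high in replicate 3 at 14 DPI (155.1 TPM) and C1qb low in replicate 1 at 28 DPI (37.53 TPM). With MMG at 14 DPI, replicate 2 was high for C1s (172.8 TPM) and C5ar1 (13.5 TPM). In unrepaired running rats, replicate 2 at 14 DPI was high for C1r (142.6 TPM) and C3 (1.94 TPM), replicate 6 at 3 DPI was low for C3ar1 (23.89 TPM), and replicate 3 at 7 DPI was high for Serping1 (477.2 TPM).

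The injured against contralateral difference was smaller at 28 than at 3 DPI by the test of the difference for C1qa (-1.323), C1qb (-1.258), C3ar1 (-2.986) and C5ar1 (-3.364). The calls of C1qa and C1qb were lost with all mapped libraries kept and without any of several single muscles, the values nearest to 0 being -0.7552 and -0.6094, and that of C1qb also with another pseudocount, no filter or size factors.

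In the 9 libraries left out for their labels, all 9 members reached values above every control muscle. The highest values were 93.07 TPM for C1qa, 49.2 TPM for C1qb, 79.32 TPM for C1qc, 80.23 TPM for C1r, 89.11 TPM for C1s, 0.78 TPM for C3, 2.13 TPM for C3ar1, 7.69 TPM for C5ar1 and 106.5 TPM for Serping1, all in libraries of running rats at 28 DPI. In 4 of these libraries, titled as control leg but labelled as injured, C1qa ran from 64.2 to 93.1 TPM, and in the 4 titled as injured but labelled as uninjured from 15.3 to 24.5 TPM. The remaining library, labelled 3 DPI while the other libraries of its rat are labelled 7 DPI, had C1qa at 33.6 TPM.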

How the results depend on the processing

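The cause of each change below was not tested. Among calls against control or contralateral muscle, the 33 in injured against control muscles held under every alternative run, and those called in contralateral against control muscles were the least stable. At 3 DPI, 7 contralateral calls became 9 with a pseudocount of 0.1 TPM, 6 with size factors, 5 with all mapped libraries, 0 with only the compared groups and 5 to 7 with 1 muscle left out. At 7 DPI, 3 became 5 with a pseudocount of 0.1 TPM, 4 with size factors, 2 with only the compared groups, 1 with all mapped libraries kept or control muscles averaged per rat, and 1 to 4 with 1 muscle left out. At 14 DPI, 4 became 5 with the pseudocount, size factors or only groups without running, 3 with no filter, 0 with all mapped libraries, the compared groups or averaged controls, and 0 to 4 with 1 muscle left out. At 28 DPI, 0 became 4 with the pseudocount, 2 with size factors or only groups without running, and 0 to 3 with 1 muscle left out. MMG against no repair at 7 DPI went from 0 to 1 with all mapped libraries and to 2 with rats numbered 100 and above. From 3 to 7 DPI, 2 calls became 4 with either range of rat numbers, 3 with all mapped libraries and 2 to 3 with 1 muscle left out. From 7 to 14 DPI, 3 became 0 with size factors, all mapped libraries or rats numbered 100 and above, 7 with those under 100, and 2 to 5 with 1 muscle left out. The 28 minus 3 DPI count of 4 became 3 with the pseudocount, no filter or size factors, 2 with all mapped libraries and 2 to 4 with 1 muscle left out. The rat as a replicate block (correlation 0.0260) changed 0 of 148 member calls. Of the log2 fold changes with no call in any setting, 49 changed sign in at least 1 alternative; no called value did.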
